A study of Mus musculus with 24 samples.

Results

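The mRNA of 10 genes that set the pace of G1, the phase of the cell cycle before DNA synthesis, was followed in mouse embryonic stem cells (ESCs) with and without Tet proteins. The genes are the D-type cyclins Ccnd1, Ccnd2 and Ccnd3, the E-type cyclins Ccne1 and Ccne2, the kinase Cdk6, the Cip/Kip inhibitor Cdkn1b and the INK4 inhibitors Cdkn2a, Cdkn2b and Cdkn2c. They were chosen by name, with the first line of each symbol in the deposited tables, and make up 10 of 22926 gene symbols. RNA was sequenced from ESC clones of 5 genotypes on day 0 (D0), with leukemia inhibitory factor (LIF) in the medium, and on day 6 (D6) of its withdrawal. The genotypes were wild-type (WT), Tet1-/-, Tet2-/-, DKO, which lacks both of these genes, and TKO, which lacks Tet3 as well. On each day WT and Tet1-/- had 3 libraries each and the other genotypes 2, every library from 1 clone. Clones are numbered here by their D0 labels. The same clones were sampled on both days, save that 1 Tet1-/- clone was sampled at D0 only (clone 2) and another at D6 only. All clones, WT included, derive from 1 line of 129/SVj background that carries eGFP behind the Pou5f1 (Oct4) gene. The knockouts were made in that line with Cas9, which leaves small insertions or deletions, so each clone also carries whatever else set it apart when it was picked. The LIF-free cultures were not sorted and could hold cells of several lineages.

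Passage from G1 into S phase is driven by cyclin-dependent kinases. D-type cyclins, which many growth signals induce, bind Cdk4 or Cdk6 and begin the phosphorylation of the Rb protein. E-type cyclins then bind Cdk2 and complete it, which frees E2F factors to transcribe genes of DNA replication. INK4 proteins bind Cdk4 and Cdk6 and keep them from D-type cyclins, while the Cip/Kip protein p27, the product of Cdkn1b, chiefly restrains cyclin E with Cdk2. Mouse ESCs are known for a short G1 and for high cyclin E activity, and G1 lengthens as they differentiate. Tet proteins oxidise the methyl group of 5-methylcytosine, which in mammals lies mostly in CpG dinucleotides.

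In mm9, the build to which the reads were mapped, the GENCODE vM1 annotation places Ccnd1 at chr7:152115836-152125774 on the minus strand and Ccnd2 at chr6:127075797-127101066 on the minus strand. It places Ccnd3 at chr17:47642000-47736632 on the plus strand, Ccne1 at chr7:38883003-38892553 on the minus strand and Ccne2 at chr4:11118498-11131926 on the plus strand. Cdk6 lies at chr5:3343893-3523218 on the plus strand and Cdkn1b at chr6:134870419-134875531 on the plus strand. Cdkn2a (chr4:88920377-88940557, minus strand) and Cdkn2b (chr4:88952198-88956941, minus strand) are neighbours, with 11640 bases between them. Cdkn2c lies farther along the same chromosome at chr4:109333481-109339794 on the minus strand. The counts cover whole transcripts, and reads on exons and on untranslated ends were not separated.

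RefSeq promoter windows of build GRCm38.p6, from 250 bases before to 50 bases after a start site, were found for 7 of the 10 genes, with 10 windows in all. Ccnd1, Ccnd2 and Ccne2 had no entry. Windows of Ccne1, Ccnd3 and Cdkn1b are printed because the clearest changes described below concern these genes. They read 5′ to 3′ on the strand of the gene, with CpG dinucleotides, the sites where Tet substrates lie, in capitals. The Ccne1 window is chr7:38107441-38107740 of GRCm38.p6, on the minus strand, and matches mm9 exactly once, at chr7:38892460-38892759. The Ccnd3 window is the downstream of 2 annotated starts, chr17:47593217-47593516 on the plus strand, which is chr17:47730166-47730465 in mm9 and lies within the mm9 gene. The Cdkn1b window is chr6:134920151-134920450 on the plus strand, which is chr6:134870169-134870468 in mm9.
Ccne1: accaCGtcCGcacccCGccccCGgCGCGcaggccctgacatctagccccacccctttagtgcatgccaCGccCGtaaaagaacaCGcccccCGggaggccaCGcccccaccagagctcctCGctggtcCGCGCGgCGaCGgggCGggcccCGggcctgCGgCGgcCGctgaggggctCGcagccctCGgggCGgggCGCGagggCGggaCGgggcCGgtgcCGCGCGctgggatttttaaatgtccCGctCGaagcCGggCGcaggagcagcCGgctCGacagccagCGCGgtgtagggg
Ccnd3: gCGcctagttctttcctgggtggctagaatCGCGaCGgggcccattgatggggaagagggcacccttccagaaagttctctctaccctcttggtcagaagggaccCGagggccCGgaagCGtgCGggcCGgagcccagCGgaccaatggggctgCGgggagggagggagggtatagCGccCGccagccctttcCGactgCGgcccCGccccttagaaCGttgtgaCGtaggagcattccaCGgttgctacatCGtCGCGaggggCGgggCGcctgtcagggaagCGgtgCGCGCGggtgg
Cdkn1b: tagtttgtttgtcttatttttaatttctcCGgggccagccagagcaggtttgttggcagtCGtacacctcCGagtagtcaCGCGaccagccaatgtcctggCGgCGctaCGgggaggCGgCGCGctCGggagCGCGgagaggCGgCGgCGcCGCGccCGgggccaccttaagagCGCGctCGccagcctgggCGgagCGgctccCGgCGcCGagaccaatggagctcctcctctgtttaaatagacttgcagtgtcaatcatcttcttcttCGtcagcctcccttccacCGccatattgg

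The Ccne1 window held 41 CpG, the Cdkn1b window 30 and the printed Ccnd3 window 28. The median over 32851 RefSeq windows of this length was 7, with quartiles at 3 and 20. The other windows of these genes held 27 CpG for Cdk6, 18 for Cdkn2b, 12 and 45 for the 2 starts of Cdkn2a, 8 and 33 for the 2 starts of Cdkn2c, and 15 for the upstream start of Ccnd3. None of the 10 windows contained the E2F-type letters TTTCGCGC or TTTGGCGC or the STAT-type letters TTCNNNGAA on either strand; of all windows, 0.323%, 0.514% and 8.3% did. The Sp1-type letters GGGCGG, which themselves hold a CpG, were present on either strand in 35.7% of all windows, 4 times in that of Ccne1, 2 times in that of Ccnd3 and 1 time in that of Cdkn1b. These matches describe letters in a window and not binding.

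Libraries held 21729346 to 37290208 counts at D0 and 18400463 to 34219640 at D6. Of the targeted genes, Tet2 mRNA was at 20.9 and 23.2 CPM (counts scaled to library size) in Tet2-/- at D0 and at 87.9 to 93.9 CPM in WT. At D6 it was at 15.9 to 16.6 CPM in Tet2-/- and 12.3 to 16 CPM in WT, so that Tet2 mRNA does not check the labels on that day. Tet1 mRNA at D0 ranged from 93.4 to 358 CPM in Tet1-/- and from 220 to 431 CPM in WT, which overlap, and small deletions need not lower an mRNA. In DKO, Tet1 mRNA was at 230 and 373 CPM at D0. In TKO it was at 41.7 and 568 CPM, so that 1 TKO library lay above all of WT. Tet2 mRNA at D0 was at 22.3 and 55.7 CPM in DKO and at 8.16 and 42.5 CPM in TKO. Tet3 mRNA at D0 was at 2.84 to 4.43 CPM in TKO and 5.05 to 7.94 CPM in WT. The summed level of 8 pluripotency genes was 4820 to 5620 CPM over all D0 libraries. At D6 it was 833 to 1710 CPM in WT and 2140 to 2340 CPM in Tet2-/-. The TKO clones 1 and 2 stood apart from each other at D0 in several of the 10 genes, and calls that changed when either was left out at D0 are given below.

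**Figure D1:**
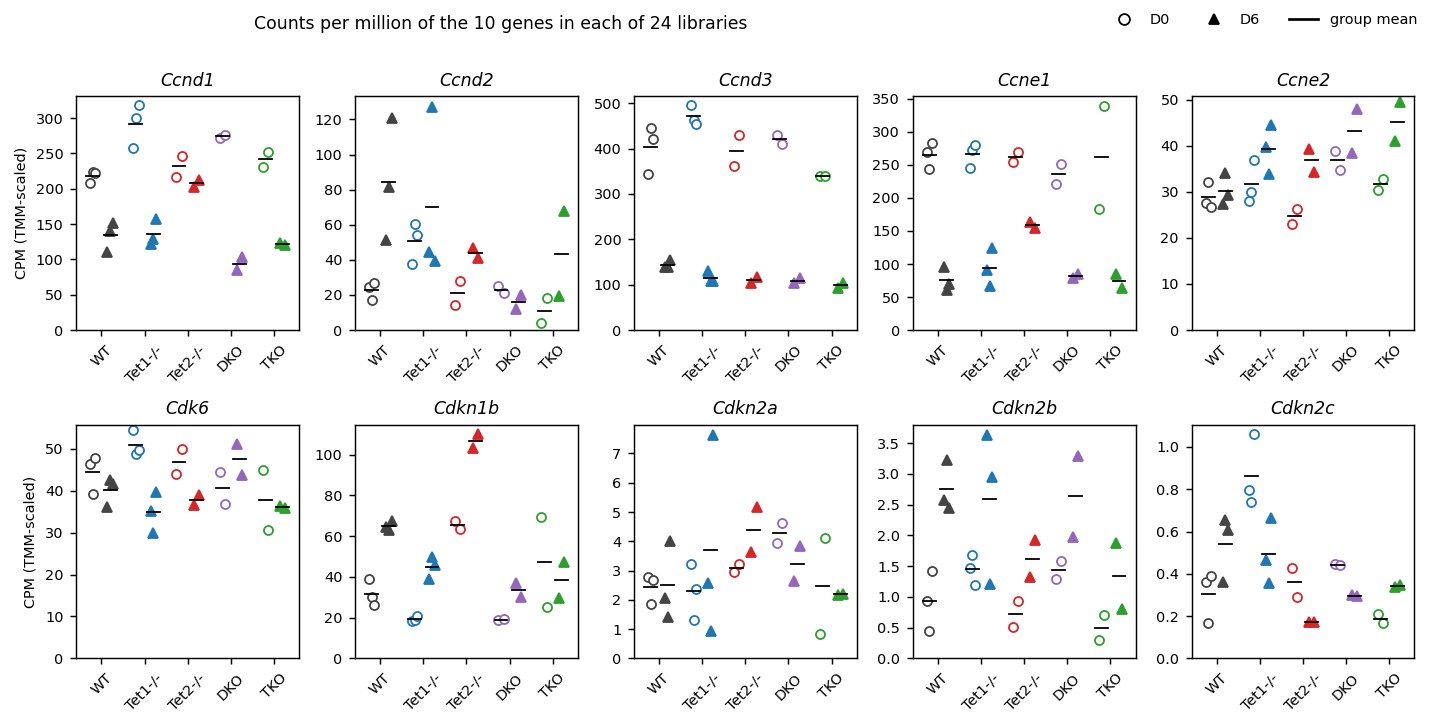
TMM-scaled CPM (vertical axis, from 0, with a scale for each gene) of the 10 genes in the 24 libraries, by genotype. Open circles are D0, filled triangles are D6 and black lines are group means. The D0 and D6 libraries of Ccnd3 do not overlap, and the Tet2-/- libraries at D6 are the highest of all 24 for Cdkn1b, at 103 and 110 CPM.

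Levels per length, in CPM per kilobase of merged exons, put Ccnd3 and Ccne1 first in undifferentiated WT clones. Exons were merged over all protein-coding transcripts of a gene, while counts were those of the first line of its symbol. Levels per length and shares made from them are thus approximate for Ccnd3, Ccne2, Cdkn2a and Cdkn2c, which had several lines. Ccnd3 was at 179 ± 23.6 (SD, n = 3), Ccne1 at 128 ± 9.44 and Ccnd1 at 58.2 ± 2.31. Cdk6 followed at 11.9 ± 1.22, Ccne2 at 9.0 ± 0.888, Cdkn1b at 6.96 ± 1.41 and Ccnd2 at 4.0 ± 0.916. The INK4 inhibitors were lowest, with Cdkn2a at 2.08 ± 0.437, Cdkn2b at 0.672 ± 0.349 and Cdkn2c at 0.114 ± 0.0457. At D6 the WT order was Ccnd3 at 63.6 ± 3.94, Ccne1 at 36.3 ± 8.67, Ccnd1 at 35.9 ± 5.69, Ccnd2 at 14.9 ± 6.18 and Cdkn1b at 14.2 ± 0.507. The D6 levels of Ccne1 and Ccnd1, and those of Ccnd2 and Cdkn1b, differed by less than their SD. The cyclin mRNAs that were highest in ESCs with LIF were therefore lower at D6 and those of Ccnd2 and Cdkn1b higher, on the same per-length scale.

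The first comparison asked how each gene differed between D6 and D0 within a genotype. Calls were made with the quasi-likelihood test of edgeR on counts and required an absolute log2 fold change over 1 together with a p-value under 0.05 after Benjamini-Hochberg adjustment over all genes tested. In WT, Ccnd2, Cdkn1b and Cdkn2b rose and Ccnd3 and Ccne1 fell, so that 5 of the 10 genes were called where 34% of all genes were (20.7% higher and 13.3% lower). In Tet1-/-, 4 were called (31.1% of all genes, 19.9% higher and 11.2% lower), with Cdkn1b higher and Ccnd1, Ccnd3 and Ccne1 lower. In DKO, 3 were called (29.2%, with 18.6% higher and 10.6% lower), all lower: Ccnd1, Ccnd3 and Ccne1. In TKO, 4 were called (25.4%, with 16.8% higher and 8.63% lower), with Ccnd2 and Cdkn2b higher and Ccnd3 and Ccne1 lower. In Tet2-/-, Ccnd3 alone was called, lower, where 19.1% of all genes were (12.7% higher and 6.44% lower). In either direction the share of the 10 genes was above that of all genes in WT, Tet1-/- and TKO, about equal in DKO and below it in Tet2-/-. The share called lower was above that of all genes in each genotype, with 3 of 10 in Tet1-/- and DKO beside 11.2% and 10.6%. The share called higher was above it in WT and TKO only. Whether the 10 genes stand out as a group was not tested. Their median log2 fold change lay between -0.48 in DKO and 0.17 in Tet2-/-. In bulk RNA, fewer cells with a transcript and less of it per cell cannot be told apart. Markers of cell state moved with the day. In WT, 8 of 8 pluripotency markers were lower, while 8 of 8 mesoderm and mesenchyme markers (summed level 7.27 to 11.5 CPM at D0 and 444 to 1200 CPM at D6), 5 of 5 trophectoderm markers and 4 of 5 endoderm markers tested were higher. Other markers went the other way or both ways: Sox7, the fifth endoderm marker tested, was lower (-2.84, adjusted p = 3.08e-06), 1 of 4 neuroectoderm markers tested was higher and 2 lower, and 1 of 5 endothelial and blood markers tested was higher and 1 lower. In Tet2-/-, 5 of 8 pluripotency markers were lower, and 5 of 8 mesoderm and mesenchyme, 3 of 5 trophectoderm, 2 of 4 neuroectoderm and 1 of 5 endoderm markers were higher. Sox7 was lower there as well (-2.32, adjusted p = 0.000408), as was 1 of 5 endothelial and blood markers. The part of these cell types in the changes of the 10 genes was not tested. Nor can the day be told apart from any batch of library preparation, since the labels name none.

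**Figure D2:**
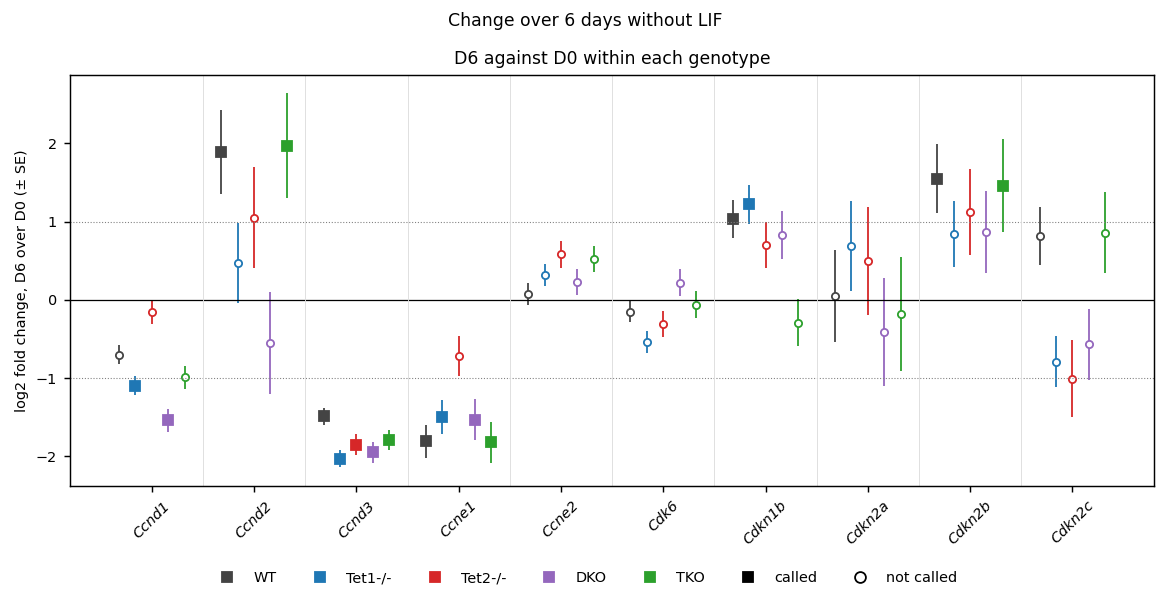
Log2 fold change of D6 over D0 (vertical axis) with its standard error for the 10 genes in each genotype. Filled squares are called, open circles are not, and dotted lines mark a log2 fold change of 1 in either direction. Ccnd3 is called lower in all 5 genotypes, from -1.49 in WT to -2.03 in Tet1-/-.

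Ccnd3, the most abundant D-type cyclin at D0, fell in every genotype. At D0 its level was 344, 446 and 421 CPM in the WT clones, 495, 463 and 455 CPM in Tet1-/-, 362 and 429 CPM in Tet2-/-, 431 and 411 CPM in DKO, and 340 and 340 CPM in TKO. At D6 it was 139, 138 and 154 CPM in WT, 131, 107 and 109 CPM in Tet1-/-, 103 and 117 CPM in Tet2-/-, 114 and 103 CPM in DKO, and 93.6 and 103 CPM in TKO. The lowest D0 library, at 340 CPM, stood above the highest D6 library, at 154 CPM. The log2 fold change was -1.49 ± 0.107 (SE) in WT (adjusted p = 1.73e-09), or 2.81-fold lower. It was -2.03 ± 0.108 in Tet1-/- (adjusted p = 5.52e-11), -1.85 ± 0.132 in Tet2-/- (9.82e-09), -1.95 ± 0.133 in DKO (2.42e-09) and -1.79 ± 0.132 in TKO (1.04e-08). All 11 clones measured on both days were lower at D6, by 1.31 to 2.07 on the log2 scale.

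Ccnd1, the D-type cyclin classically tied to growth factor signals, was lower at D6 in 11 of 11 clones, but by amounts that ranged widely. Its D0 levels were 208 to 319 CPM over the 12 libraries. At D6 the WT clones were at 140, 111 and 152 CPM, the Tet1-/- clones at 122, 129 and 157 CPM, the DKO clones at 104 and 84.3 CPM and the TKO clones at 123 and 120 CPM. The Tet2-/- clones were at 202 and 213 CPM, above all other D6 libraries and close to their own D0 levels of 216 and 247 CPM. Ccnd1 fell by 1.54 on the log2 scale in DKO (SE 0.15, adjusted p = 1.76e-07) and by 1.1 in Tet1-/- (SE 0.121, adjusted p = 3.77e-07). The Tet1-/- call was lost without clone 1 at D6 (-0.99) and with library totals as the scale (-0.9). In WT the change of -0.7 ± 0.12 (adjusted p = 5.31e-05) and in TKO that of -0.99 ± 0.148 (2.85e-05) passed the p-value limit but not the fold limit. The TKO change of Ccnd1 was called without clone 1 at D0 (-1.05) or at D6 (-1.01). In Tet2-/- the change was -0.16 ± 0.146 (adjusted p = 0.414).

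Ccnd2, the D-type cyclin that was least abundant at D0, moved most unevenly between clones. In WT it was at 24.5, 17 and 27 CPM at D0 in clones 1, 2 and 3, and at 81.3, 51.2 and 121 CPM at D6 in the same clones. All WT clones were higher at D6, and the groups did not overlap, nor did they for 70.7% of all genes. The log2 fold change was 1.89 ± 0.534 in WT (adjusted p = 0.00442), or 3.71-fold. In TKO, clone 1 went from 3.72 to 19.3 CPM and clone 2 from 18.4 to 67.7 CPM. The TKO log2 fold change was 1.97 ± 0.67 (adjusted p = 0.0203). With 1 library left out, this Ccnd2 value ran from 0.82 to 3.53. The call was lost without clone 1 at D0 (1.23) or without clone 2 at D6 (0.82).

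In the other genotypes Ccnd2 was not called. The DKO clones 1 and 2 were at 25.1 and 21 CPM at D0 and at 19.7 and 12 CPM at D6, both lower, with a log2 fold change of -0.55 ± 0.649 (adjusted p = 0.491). In Tet1-/-, clone 1 was at 37.8 CPM and then 44.4 CPM, clone 3 at 54 CPM and then 39.1 CPM, clone 2 (D0 only) at 60.4 CPM and the clone sampled at D6 only at 127 CPM. The Tet2-/- clones 1 and 2 rose from 14.4 and 27.9 CPM to 46.9 and 40.9 CPM, by 1.7 and 0.55 on the log2 scale. In Tet2-/- the log2 fold change of Ccnd2 was 1.05 ± 0.642 (adjusted p = 0.205), and with the clone as a replicate block it was 1.11 (adjusted p = 0.00592), which passes both limits.

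The D-type cyclin mRNA also differed between days in its makeup. Per kilobase of exon, Ccnd3 made up 68.0% to 75.9% of the sum of Ccnd1, Ccnd2 and Ccnd3 in the D0 libraries and 42.2% to 65.0% in the D6 libraries. The sum itself was 213 to 296 CPM per kilobase at D0 and 70.4 to 130 at D6. Ccnd1 made up 49.0% and 50.2% in Tet2-/- at D6 and 29.7% to 33.1% in WT. Ccnd2 reached 9.01% to 16.4% in WT at D6 and 2.98% and 4.21% in DKO. The 2 Tet2-/- libraries at D6 were thus the ones in which Ccnd1, and not Ccnd3, had the largest share. These shares come from the same counts as the levels above and are given as a description.

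**Figure D3:**
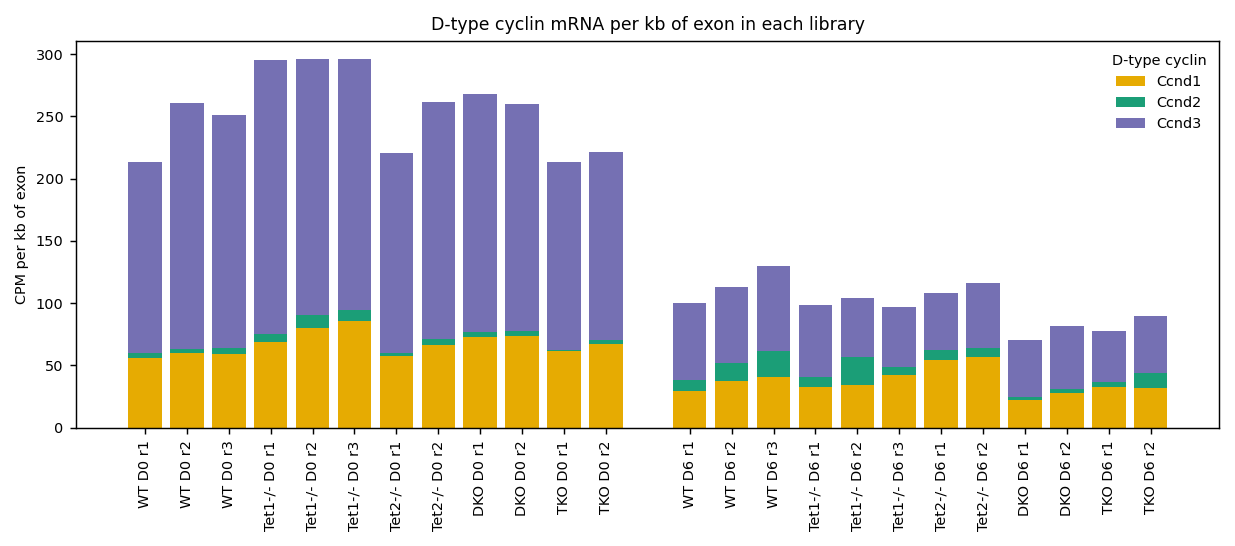
Stacked bars of CPM per kilobase of exon (vertical axis, from 0) of Ccnd1, Ccnd2 and Ccnd3 in the 24 libraries, D0 on the left and D6 on the right, with r for the replicate number of the label. The D0 bars reach 213 to 296 and the D6 bars 70.4 to 130, and Ccnd1 takes up about as much of the Tet2-/- bars at D6 as Ccnd3.

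Ccne1, the E-type cyclin that drives Cdk2 late in G1, was lower at D6 in 11 of 11 clones, and least so in Tet2-/-. At D0 its level was 269, 244 and 283 CPM in WT, 246, 272 and 280 CPM in Tet1-/-, 254 and 269 CPM in Tet2-/-, 221 and 252 CPM in DKO, and 184 and 340 CPM in TKO. At D6 it was 61.1, 95.7 and 69.8 CPM in WT, 90.8, 67.1 and 124 CPM in Tet1-/-, 163 and 155 CPM in Tet2-/-, 85.2 and 79 CPM in DKO, and 85.3 and 63.3 CPM in TKO. The Tet2-/- libraries were the highest at D6, and those of the other genotypes overlapped. Ccne1 fell by 1.81 on the log2 scale in WT (SE 0.216, adjusted p = 8.53e-07), by 1.5 in Tet1-/- (SE 0.214, 7.82e-06), by 1.53 in DKO (SE 0.262, 9.06e-05) and by 1.82 in TKO (SE 0.265, 2.27e-05). The TKO value of Ccne1 ran from -2.19 without clone 1 at D0 to -1.31 without clone 2 at D0 and was called in both. In Tet2-/- the change was -0.72 ± 0.257 (adjusted p = 0.0324), past the p-value limit but not the fold limit.

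Ccne2, the paralog of Ccne1, did not follow it. Its level was 23.1 to 38.9 CPM over the D0 libraries and 27.3 to 49.4 CPM over the D6 libraries, and 10 of 11 clones were higher at D6. No change of Ccne2 reached the fold limit. The log2 fold change was 0.07 ± 0.139 in WT (adjusted p = 0.663), 0.58 ± 0.17 in Tet2-/- (0.0117) and 0.52 ± 0.17 in TKO (0.0169).

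Cdk6, the kinase partner of D-type cyclins, was among the most even of the 10 genes. It ranged from 30.6 to 54.5 CPM over the D0 libraries and from 30.0 to 51.2 CPM over those of D6, and was lower at D6 in 9 of 11 clones. The largest change was that in Tet1-/-, at -0.54 ± 0.138 (adjusted p = 0.00215), where 54.5, 48.8 and 49.7 CPM at D0 stood above 35.1, 30.0 and 39.8 CPM at D6. The days did not overlap for 68.3% of all genes in that genotype. In WT the change was -0.15 ± 0.138 (adjusted p = 0.358).

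Cdkn1b, which encodes p27, was higher at D6 in 10 of 11 clones. WT clones 1, 2 and 3 were at 38.8, 30 and 26.2 CPM at D0 and at 62.8, 64.4 and 67.3 CPM at D6. The Tet1-/- clones were at 18.2, 18.8 and 20.6 CPM at D0 and at 38.8, 49.9 and 45.6 CPM at D6, and the DKO clones 1 and 2 went from 18.6 and 19.2 CPM to 30.2 and 36.9 CPM. In each of these genotypes the D6 libraries stood above the D0 libraries of the same genotype. The days did not overlap for 70.7% of all genes in WT, 68.3% in Tet1-/- and 84.4% in DKO. The Tet2-/- clones started at 67.4 and 63.6 CPM, a level like that of WT at D6, and ended at 103 and 110 CPM. The exception was TKO clone 1, which fell from 69.4 to 29.8 CPM while clone 2 went from 25 to 47.3 CPM.

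Cdkn1b rose in WT (log2 fold change 1.03 ± 0.246, adjusted p = 0.00118) and Tet1-/- (1.22 ± 0.249, adjusted p = 0.000331). The WT value of Cdkn1b lies at the fold limit, and the call was lost without clone 2 (1.00) or 3 (0.91) at D0. In Tet2-/- the change was 0.7 ± 0.296 (adjusted p = 0.0662), in DKO 0.83 ± 0.305 (0.0272), with 1.04 when library totals were the scale, and in TKO -0.29 ± 0.299 (0.427). Without clone 1 at D0, the TKO value of Cdkn1b became 0.62. Taken singly, TKO clone 1 changed by -1.22 and clone 2 by 0.92 on the log2 scale.

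The INK4 inhibitors were close to the lower end of what the counts could resolve. The level that 0 counts would leave possible, 3 counts, lies between 0.0814 and 0.151 CPM in these libraries for counting error alone. Cdkn2b, the INK4 gene that TGF-beta signals are known to induce, was higher at D6 in 11 of 11 clones, by 0.19 to 2.68 on the log2 scale. In WT it was at 0.929, 0.453 and 1.42 CPM at D0 and at 3.23, 2.58 and 2.45 CPM at D6. The days did not overlap, nor did they for 70.7% of all genes. Cdkn2b rose in WT by 1.55 ± 0.444 on the log2 scale (adjusted p = 0.00479). In TKO it went from 0.292 and 0.701 CPM to 1.88 and 0.799 CPM, with a log2 fold change of 1.46 ± 0.598 (adjusted p = 0.0482). That Cdkn2b call was lost with the clone as a replicate block (1.4, adjusted p = 0.0609) and without any 1 of 18 of the 24 libraries, among them clone 1 at D0 (0.98, adjusted p = 0.27) and at D6 (0.68, adjusted p = 0.481). In Tet1-/- the value was 0.84 ± 0.423 (adjusted p = 0.0885), and with the clone as a block, where only clones 1 and 3 (each at 1.3) compare the days, it was 1.3 (adjusted p = 0.0368). With library totals as the scale the Tet1-/- value of Cdkn2b was 1.05 (adjusted p = 0.039), also past both limits.

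Cdkn2a, which encodes the tumour suppressors p16Ink4a and p19Arf, showed no direction. Its level was 0.835 to 4.63 CPM over the D0 libraries and 0.928 to 7.64 CPM over those of D6, and 6 of 11 clones were higher and 5 lower. The log2 fold change was between -0.41 ± 0.693 in DKO and 0.69 ± 0.578 in Tet1-/-, with adjusted p-values from 0.302 to 0.939. The symbol Cdkn2a had 2 lines, of which the first was used, and its products cannot be told apart here. The unused second line held 145% of the counts of the first at D0 and 137% at D6. For the second line of Cdkn2c these shares were 37.1% and 46.4%. Cdkn2c, which encodes p18Ink4c, had 4 to 24 counts in a library at D0 and 5 to 21 at D6. It was higher at D6 in 5 clones and lower in 6, and no change was called; the WT value was 0.81 ± 0.37 (adjusted p = 0.0591) and that in Tet2-/- was -1.01 ± 0.491 (adjusted p = 0.117). In Tet1-/- the Cdkn2c value of -0.79 ± 0.325 (adjusted p = 0.0397) passed the p-value limit alone, and it was called without clone 3 at D6 (-1.05, adjusted p = 0.0167).

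The other G1/S regulators give the setting for these genes. Of 25 such genes tested in WT, 2 were higher at D6 and 1 lower, a smaller share than the 20.7% and 13.3% of all genes. Cdkn1c, a Cip/Kip inhibitor like Cdkn1b, rose by 2.24 ± 0.309 on the log2 scale (adjusted p = 4.59e-06). Cdkn1a, which encodes p21, rose by 1.05 ± 0.183 (adjusted p = 6.14e-05). E2f2, an activating E2F, fell by 2.35 (SE 0.17, adjusted p = 1.99e-09). Cdkn1c was called higher and E2f2 lower in all 5 genotypes, from 1.67 to 2.31 for Cdkn1c and from -2.98 to -1.34 for E2f2. Cdkn1a was called higher in WT, Tet1-/- and DKO, and Rb1, the target of the G1 kinases, in Tet2-/- (1.31 ± 0.241, adjusted p = 0.000321) and TKO (1.48 ± 0.244, adjusted p = 7.53e-05; this TKO value was named after it was seen). In TKO 2 were higher and 2 lower, with Myc, an inducer of growth and cell cycle genes, at -1.73 ± 0.363 (adjusted p = 0.000703). Of 22 genes of S phase and mitosis, 0 were higher and 4 lower in WT (read against the same shares of all genes), led by Mcm5 at -1.43, Pcna at -1.22 and Rrm2 at -1.08. In TKO 1 was higher, Mki67 at 1.01 ± 0.234 (adjusted p = 0.0016), and 2 were lower (16.8% and 8.63% of all genes). The median log2 fold change of this list was -0.47 for WT, -0.6 for Tet1-/-, -0.5 for DKO, -0.31 for Tet2-/- and -0.29 for TKO, beside -0.01 to 0.01 over all genes tested.

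The second comparison asked how the knockouts differed from WT before differentiation. In Tet2-/-, Cdkn1b alone was called, higher, where 3.19% of all genes were called. The values of 67.4 and 63.6 CPM stood above 38.8, 30 and 26.2 CPM in WT, with a log2 fold change of 1.03 ± 0.297 (adjusted p = 0.0478). Libraries of Tet2-/- and WT did not overlap for 57.2% of all genes. This Cdkn1b call sits at both limits. It was lost with library totals as the scale (0.98), with all lines of a symbol summed (1.03) and with the replicate number as a replicate block (1.01). It was also lost without 9 of the 12 libraries in turn, while the value itself stayed between 0.92 and 1.2. Of the lineage and pluripotency markers, 1 was called in this contrast, Krt7 of trophectoderm (-2.03, adjusted p = 0.0236), and its part in the Cdkn1b value was not tested.

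In Tet1-/- (0.00692% of all genes called), DKO (0.0346%) and TKO (3.15%), edgeR called 0 of the 10 genes at D0, and DESeq2 also called 0 in each (0.346%, 0.768% and 3.38% of all genes), though it gave Cdkn2c in Tet1-/- no adjusted p-value. At an unadjusted p under 0.05 there were 4, 3 and 1 of the 10, beside 12.6%, 14.4% and 26.4% of all genes. In Tet1-/- these were Ccnd1, Ccnd2, Cdkn1b and Cdkn2c. Cdkn2c was at 0.796, 0.738 and 1.06 CPM, above the WT values of 0.363, 0.165 and 0.389 CPM, with a log2 fold change of 1.46 ± 0.362 (adjusted p = 0.14). Ccnd2 was at 37.8, 60.4 and 54 CPM in Tet1-/- and 24.5, 17 and 27 CPM in WT, with a log2 fold change of 1.13 ± 0.413 (adjusted p = 0.286). Libraries of Tet1-/- and WT did not overlap for either gene, nor for 23.6% of all genes. Both Cdkn2c (adjusted p = 0.0427 and 0.0431) and Ccnd2 (0.0153 and 0.0153) were called in Tet1-/- when TKO clone 1 or 2 was left out of the fit, which shares its estimate of spread over all genotypes. In those fits 0.744% and 0.746% of all genes were called. In DKO the genes with an unadjusted p under 0.05 were Ccnd1 (0.32 ± 0.102, adjusted p = 0.192), Ccne2 (0.34 ± 0.14, adjusted p = 0.292) and Cdkn1b (-0.76 ± 0.316, adjusted p = 0.3).

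The 2 TKO clones lay on opposite sides of the WT mean at D0 for Ccne1, Cdkn1b and Cdkn2a. Clone 1 had 3.72 CPM of Ccnd2, 184 CPM of Ccne1, 69.4 CPM of Cdkn1b and 0.835 CPM of Cdkn2a. Clone 2 had 18.4, 340, 25 and 4.12 CPM of the same genes. Against WT at D0, 3 of the 10 genes were called when clone 2 was left out (5.77% of all genes), Ccnd2 (-2.61, adjusted p = 0.000827), Cdkn1b (1.13, adjusted p = 0.000327) and Cdkn2a (-1.54, adjusted p = 0.0363). With clone 1 left out, edgeR called none of the 10 and 7.76% of all genes.

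**Figure D4:**
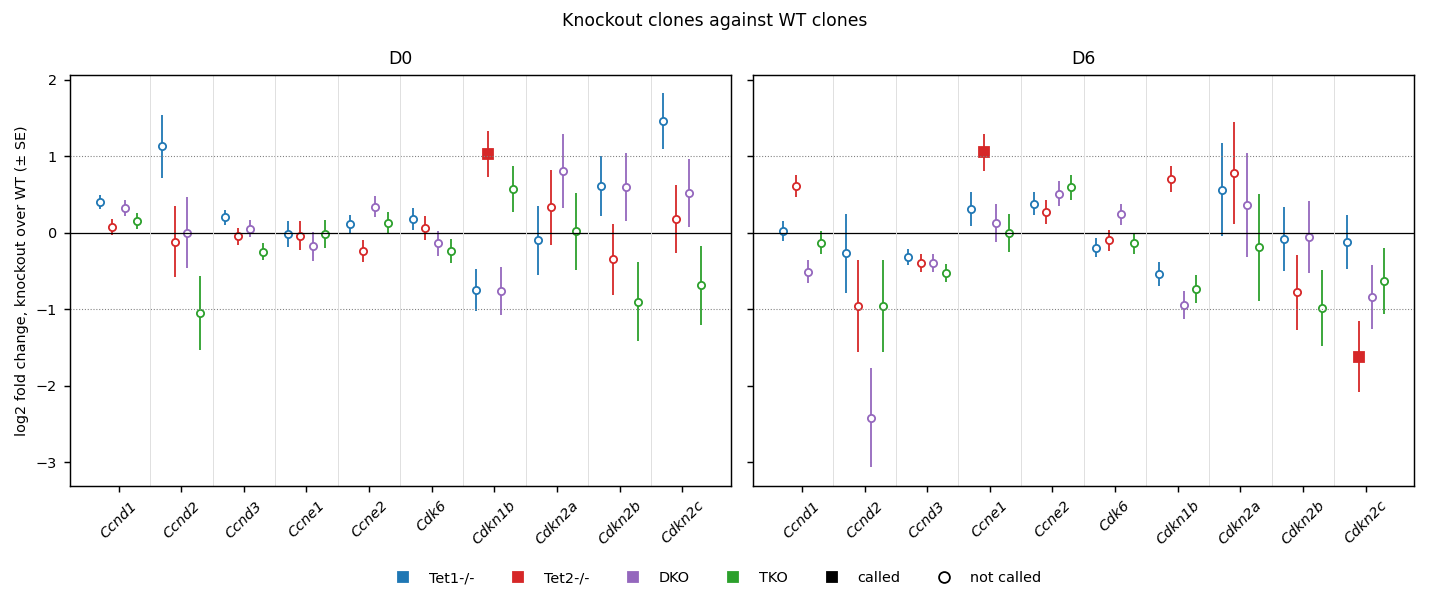
Log2 fold change of each knockout over WT (vertical axis) with its standard error for the 10 genes, at D0 (left) and D6 (right). Filled squares are called, open circles are not, and dotted lines mark a log2 fold change of 1. The called values are all of Tet2-/-, for Cdkn1b at D0 (1.03) and for Ccne1 (1.05) and Cdkn2c (-1.62) at D6.

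The third comparison asked the same at D6. In Tet2-/-, 2 of the 10 genes were called where 14.3% of all genes were. Ccne1 was higher, at 163 and 155 CPM against 61.1, 95.7 and 69.8 CPM in WT, with a log2 fold change of 1.05 ± 0.245 (adjusted p = 0.0129). Cdkn2c was lower, at 0.173 and 0.174 CPM (6 and 5 counts) against 0.655, 0.363 and 0.605 CPM, with a log2 fold change of -1.62 ± 0.46 (adjusted p = 0.0243). In all, 5 of the 10 passed the p-value limit, as did 28.5% of all genes, and 3 of them were under the fold limit: Ccnd1 at 0.61 ± 0.147 (adjusted p = 0.0144), Cdkn1b at 0.7 ± 0.173 (0.0158) and Ccnd3 at -0.4 ± 0.118 (0.0287). The libraries of Tet2-/- and WT did not overlap for these genes, nor for Ccnd2, Ccne2 and Cdkn2b, which makes 8 of 10, and with 2 libraries against 3 they did not overlap for 63.1% of all genes.

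The Ccne1 call was lost without WT clone 1 (0.95, adjusted p = 0.0401) or either Tet2-/- clone (adjusted p = 0.081 and 0.0849) at D6, with a value between 0.95 and 1.27 throughout. The Cdkn2c call was lost with DESeq2 and without WT clone 1 or 3 or either Tet2-/- clone, with adjusted p-values up to 0.141. Few genes of any kind were called in the fits with 1 Tet2-/- clone, 1.93% of all genes without clone 1 and 0% without clone 2. With the replicate number as a block Cdkn2c was not called (-1.44, adjusted p = 0.0578) and Cdkn2a was (1.49, adjusted p = 0.0434).

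Markers of cell state moved with the same contrast. In Tet2-/- against WT at D6, 7 of 8 mesoderm and mesenchyme markers were lower (summed level 113 and 117 CPM against 444 to 1200 CPM in WT), as were 4 of 5 endoderm markers tested (9.8 and 11.3 CPM against 56.6 to 260 CPM) and 5 of 5 trophectoderm markers (60.6 and 84.2 CPM against 120 to 315 CPM). Of 4 neuroectoderm markers tested, 3 were higher (195 and 205 CPM against 95.7 to 128 CPM), Neurog2 being at 0 in both groups. Elf5, a trophectoderm marker, was at 0 in Tet2-/-. Of 8 pluripotency markers 1, Pou5f1, was higher, and of 5 endothelial and blood markers tested 2 were lower (53.9 and 61.1 CPM against 80.6 to 146 CPM). The part of these markers' cell types in the Ccne1, Cdkn2c, Ccnd1, Cdkn1b and Ccnd3 values was not tested. Of the other 25 G1/S regulators E2f2 was higher (1.06 ± 0.209, adjusted p = 0.00763), and of the 22 S phase and mitosis genes edgeR called 0.

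In Tet1-/-, DKO and TKO at D6, edgeR called 0 of the 10 genes and 0% of all genes. The all-gene share for TKO depended on the fit: it was 3.29% in the fit of all 24 libraries, 0.455% with no filter and up to 4.67% with 1 library left out (that without WT clone 2), and for DKO it was 0.627% in the fit of all 24 libraries. edgeR called 0 of the 10 genes in each of these fits. At an unadjusted p under 0.05 there were 3, 5 and 3 of the 10, beside 12.6%, 14.6% and 23.5% of all genes. DESeq2 called 0, 1 and 0 of the 10, and 0.285%, 1.2% and 3.05% of all genes. The gene that DESeq2 called was Ccnd2 in DKO, at 19.7 and 12 CPM against 81.3, 51.2 and 121 CPM in WT. These libraries did not overlap, nor did they for 37.3% of all genes. The log2 fold change of Ccnd2 was -2.42 ± 0.645 in edgeR (adjusted p = 0.202) and -2.41 in DESeq2 (adjusted p = 0.0379). Cdkn1b was lower than WT in every library of these 3 knockouts at D6, at 29.8 to 49.9 CPM against 62.8 to 67.3 CPM. Libraries of knockout and WT did not overlap for 15.9% of all genes in Tet1-/-, 37.3% in DKO and 36.3% in TKO. The 3 contrasts share the same WT libraries. The log2 fold change of Cdkn1b was -0.54 ± 0.158 in Tet1-/- (adjusted p = 0.322), -0.95 ± 0.181 in DKO (0.171) and -0.74 ± 0.18 in TKO (0.0745), and none passed. The Tet2-/- libraries lay on the other side of WT, at 103 and 110 CPM.

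**Figure D5:**
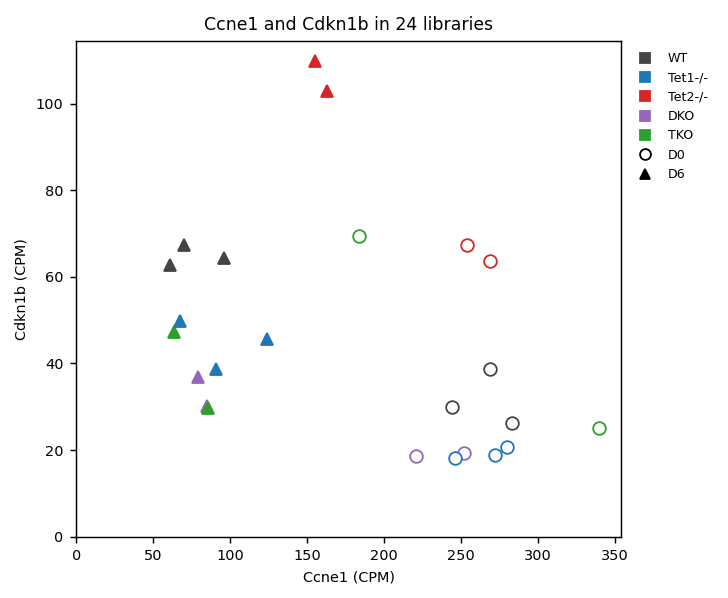
CPM of Ccne1 (horizontal axis) and Cdkn1b (vertical axis) in the 24 libraries, coloured by genotype, with open circles for D0 and filled triangles for D6. The 2 Tet2-/- libraries at D6 are alone above 100 CPM of Cdkn1b and above 150 CPM of Ccne1 among the D6 libraries, and the 2 TKO libraries at D0 lie far apart.

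Whether the change over 6 days differed from that of WT was tested as an interaction. In Tet2-/-, 2 of the 10 genes were called where 8.68% of all genes were: Ccne1, whose fall was smaller by 1.09 ± 0.332 on the log2 scale (adjusted p = 0.0332), and Cdkn2c, at -1.81 ± 0.615 (adjusted p = 0.0478). For Ccnd1 the difference was 0.54 ± 0.189 (adjusted p = 0.057). In TKO, Cdkn1b was called (-1.33 ± 0.387, adjusted p = 0.0486; 3.58% of all genes were called). It was not called with the clone as a replicate block (-1.22, adjusted p = 0.12) or without any 1 of 18 of the 24 libraries, among them clone 1 at D0 (-0.42, adjusted p = 0.371) and at D6 (-1.03, adjusted p = 0.163). The Tet2-/- calls of Ccne1 (0.96 to 1.3) and Cdkn2c (-2.08 to -1.51) were lost without any 1 of 8 and of 19 libraries. The Cdkn2c call was also lost with no filter (-1.8, adjusted p = 0.0891) and with summed lines (-1.7, adjusted p = 0.0715), and DESeq2 gave it no adjusted p-value. In the same Tet2-/- contrast, 4 of 8 mesoderm and mesenchyme, 2 of 5 endoderm, 1 of 5 trophectoderm and 2 of 5 endothelial and blood markers tested were lower, and 2 of 4 neuroectoderm and 2 of 8 pluripotency markers were higher. In that of TKO, 3 of 5 endoderm, 1 of 8 mesoderm and mesenchyme, 1 of 5 trophectoderm and 1 of 5 endothelial and blood markers were lower, and 0 of any marker list were higher. Their part in these values was not tested. Of the other G1/S regulators, Cdkn1a (-1.26), E2f2 (1.01) and Rbl2 (1.01) were called in Tet2-/-, and Rbl2 (1.13) and Myc (-1.93) in TKO. In Tet1-/- and DKO edgeR called 0 of the 10 genes and 0% of all genes, with 3 and 4 of the 10 at an unadjusted p under 0.05 (7.67% and 8.02% of all genes), and DESeq2 called 0 of the 10 in both (0.0767% and 0.128% of all genes), with no adjusted p-value for the 3 INK4 genes in Tet1-/-. The largest such difference was that of Ccnd2 in DKO, at -2.44 ± 0.841 (adjusted p = 0.464).

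The Tet2-/- clones were also compared with each other knockout, since a difference from WT does not show that Tet2-/- stands apart. At D0 Cdkn1b was higher in Tet2-/- than in Tet1-/- (1.77 ± 0.3, adjusted p = 0.00399) and DKO (1.79 ± 0.343, adjusted p = 0.00804). Against Tet1-/-, 2 of the 10 genes were called (6.19% of all genes), the other being Cdkn2c (-1.28 ± 0.392, adjusted p = 0.0372), and against DKO 1 was (6.36%). The Cdkn1b call against DKO was lost without Tet2-/- clone 1 or either DKO clone (adjusted p up to 0.0783), and the Cdkn2c call against Tet1-/- without any 1 of 8 of the 12 libraries. That Cdkn2c call was also lost with DESeq2 (adjusted p = 0.112), no filter (0.0597), summed lines (0.0671) and the replicate number as a block (-1.09, adjusted p = 0.0789). Ccnd2 against Tet1-/- (-1.25 ± 0.473, adjusted p = 0.0806) was called with no filter (-1.24, adjusted p = 0.0419) and without TKO clone 1 (-1.24, adjusted p = 0.00175) or 2 (-1.24, adjusted p = 0.00179). Against TKO at D0, edgeR and DESeq2 each called 0 of the 10 (4.19% of all genes by edgeR and 4.64% by DESeq2), with 1 at an unadjusted p under 0.05 (29.9%). The Cdkn1b value there was 0.46 ± 0.328 (adjusted p = 0.372), and 1.38 (adjusted p = 8.05e-05) without TKO clone 1, where 13.1% of all genes were called. Without TKO clone 2, Ccnd2 (2.5, adjusted p = 0.002) and Cdkn2a (1.87, adjusted p = 0.0237) were called, and 3.65% of all genes. Some markers moved with these D0 contrasts. The pluripotency marker Zfp42 was lower in Tet2-/- than in Tet1-/- (-1.04), DKO (-1.19) and TKO (-1.25). Kdr, an endothelial marker, was lower than in Tet1-/- (-1.9) and DKO (-2.2), as were T against Tet1-/- (-2.56) and Tagln (-1.43) and Pdgfra (-1.33) against DKO, which are markers of mesoderm and mesenchyme. Against TKO, Gata6 (-3.57) and Nes (-1.21) were lower and Sox1 (1.27) higher. Their part in the D0 values of the 10 genes was not tested.

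At D6 Cdkn1b was higher in Tet2-/- than in all 3 other knockouts. The log2 fold change was 1.24 ± 0.173 against Tet1-/- (adjusted p = 0.0071), 1.65 ± 0.197 against DKO (0.00239) and 1.44 ± 0.196 against TKO (0.00662). Against Tet1-/- it was the 1 gene of the 10 called (6.36% of all genes). Against DKO, 2 were called (9.5%), with Ccnd1 at 1.12 ± 0.165 (adjusted p = 0.00359). Against TKO, 2 were called (8.64%), with Ccne1 at 1.06 ± 0.275 (adjusted p = 0.03). Ccne1 was at 0.74 ± 0.245 against Tet1-/- (adjusted p = 0.0764) and at 0.93 ± 0.273 against DKO (0.0429), below the fold limit. Ccnd1 was at 0.59 ± 0.147 against Tet1-/- (adjusted p = 0.0312) and 0.74 ± 0.164 against TKO (0.0183). With 1 Tet2-/- clone at D6 left out, the Cdkn1b calls against Tet1-/- and TKO were lost, with adjusted p-values of 0.0532 to 0.136 and log2 fold changes of 1.19 to 1.49. The Ccne1 call against TKO was lost without either Tet2-/- clone or TKO clone 2 (0.86, adjusted p = 0.19), and the Ccnd1 call against DKO without Tet2-/- clone 2 (1.09, adjusted p = 0.0573) or DKO clone 2 (0.98, adjusted p = 0.0468). Lineage markers moved with these contrasts as well. Against Tet1-/-, DKO and TKO in that order, 5, 5 and 7 of 8 mesoderm and mesenchyme markers, 4, 2 and 4 of 5 trophectoderm markers and 3, 2 and 0 of 5 endoderm markers tested were lower in Tet2-/-, and 2, 2 and 3 of 4 neuroectoderm markers tested were higher. Kdr was lower against Tet1-/-, and of the pluripotency markers Klf4 was higher against Tet1-/- and Pou5f1 against TKO. Of the other G1/S regulators, E2f2 was higher against DKO (1.07) and Myc against TKO (1.26), and of the S phase and mitosis genes Rrm2 was higher against DKO (1.07). Summed mesoderm and mesenchyme levels were 113 and 117 CPM in Tet2-/- and 407 to 960 CPM over the other knockouts. The part of these cell types in the Cdkn1b, Ccne1 and Ccnd1 differences was not tested.

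Ordered by level, Cdkn1b stood at 107 ± 4.78 CPM (SD, n = 2) in Tet2-/- at D6, then at 65.5 ± 2.7 in Tet2-/- at D0 and 64.8 ± 2.3 in WT at D6, which did not differ beyond their SD. The lowest were Tet1-/- and DKO at D0, at 19.2 ± 1.27 and 18.9 ± 0.478 CPM, again without a difference beyond the SD. For Ccne1, the 5 D0 groups, at 237 to 266 CPM, were followed by Tet2-/- at D6 (159 ± 5.88 CPM) and then by the other D6 groups, at 74.3 to 94 CPM, which did not differ beyond their SD from one to the next. For Ccnd1, Tet2-/- at D6 (207 ± 7.13 CPM) came next after WT at D0 (218 ± 8.62 CPM), and the other D6 groups lay between 94 and 136 CPM.

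The genes whose log2 CPM was most like that of a member over the 24 libraries were taken for the 4 members with the widest range of group means. For Ccnd2 they were Map4k4 (Pearson r = 0.846) and Zfp169 (0.821), and for Cdkn1b Elmsan1 (0.941) and Garem (0.922). For Cdkn2b they were Srf (0.845) and Scube3 (0.835), and for Ccnd3 Ap1s1 (0.984) and Bcl3 (0.981). These correlations are over 24 libraries that share days, genotypes and clones.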

How the data were processed

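Poly(A) RNA of 24 ESC libraries, made with an unstranded kit after ERCC spike-ins were added, was sequenced in paired ends. Per the labels and the methods, the authors aligned reads to mm9 with STAR 2.5.1. The authors deposited 2 tables of raw counts per gene, 1 for each day, with 31928 lines. The counting tool is named in different ways (HTSeq and featureCounts), and its strand setting is not given in the sources used here. The authors normalised to spike-ins; the tables analysed here held no spike-in lines, so that scaling was not repeated. Of symbols on several lines (4911 of 22926), the first line was used.

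The members and gene lists were chosen with earlier results of these data known. Named genes were the 10 members, up to 3 called genes of each pathway list in a comparison with the largest fold change, and the 2 genes most like each of 4 members. Counts were scaled by TMM and tested with the quasi-likelihood test of edgeR 4.0.16 (limma 3.58.1, R 4.3.3) after its expression filter (minimum count 10). Fits used 14456 genes at D0, 15435 at D6 and 15639 over all libraries, and p-values were adjusted by Benjamini-Hochberg over all of them, within each of 23 comparisons. CPM in the text is TMM-scaled. Depth was 21729346 to 37290208 counts at D0 and 18400463 to 34219640 at D6, which limits precision for genes with few counts. Clones pair D0 with D6 by the labels. Deviations of the same clone from its group means correlated at 0.0613 to 0.164 (n = 11 clones). In Tet2-/-, DKO and TKO, with 2 clones each, both clones give the same value by construction. No 2 libraries of a group held identical counts, and p-values measure the spread between clones. Alternatives were DESeq2 1.42.0, library totals, no filter, no fold limit, summed lines, a clone or replicate-number block, a fit of all 24 libraries and leaving out each library. In simulated data, 200 genes were changed by a log2 of 2, drawn only from genes above a minimum expected count. Of them, 99% were called for D6 against D0 in WT (15639 genes, 3 false calls) and 92% for Tet2-/- against WT at D6 (15435 genes, 7 false calls). For the interaction in Tet2-/-, 91% were called (6 false calls). Changes near the fold limit and genes with as few counts as Cdkn2c were not simulated, so these shares do not cover them.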

Additional observations from a re-analysis of the deposited data

Results flagged for a closer look

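The change from D0 to D6 differed from that of WT for 3 of these genes by the interaction test of edgeR, which called 2 of the 10 and 8.68% of all genes in Tet2-/- and 1 of the 10 and 3.58% of all genes in TKO. For Ccne1 in Tet2-/- the difference was 1.09 on the log2 scale (SE 0.332, adjusted p = 0.0332), with log2 fold changes of -0.72 in Tet2-/- and -1.81 in WT. For Cdkn2c in Tet2-/- it was -1.81 (SE 0.615, adjusted p = 0.0478), from 6 and 5 counts in the Tet2-/- libraries at D6, and it was not called with no filter (-1.8) or with summed lines (-1.7). For Cdkn1b in TKO it was -1.33 (SE 0.387, adjusted p = 0.0486), where clone 1 changed by -1.22 on the log2 scale and clone 2 was higher.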

How the results depend on the processing

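Among counts of called genes, 133 of 152 values under an alternative that kept all libraries stayed within 1.5 times the reported count, and 310 of 384 with 1 library left out. Among single values 299 of 340 and 885 of 996 kept their direction and side of the threshold, and 0 reversed. These single values were kept because they were called in the main fit or in an alternative with all libraries, so a reversal was unlikely from the start. The library left out was often from a group outside the comparison. The cause of the changes was not tested. With no fold limit the count was 3 for Tet2-/- D6 against D0 (reported 1, with 40% of all genes called), 5 for Tet2-/- against WT at D6 (2, with 28.5%), 2 for Tet2-/- against DKO at D0 (1, with 19.6%) and 2 for Tet2-/- against Tet1-/- at D6 (1, with 10% of all genes). With DESeq2 it was 1 for Tet2-/- against WT at D6 (2, with 15.2%), 1 for DKO against WT at D6 (0, with 1.2%) and 1 for Tet2-/- against Tet1-/- at D0 (2, with 5.96% of all genes). For the interaction in Tet2-/- DESeq2 called 1 (10.5% of all genes) and gave Cdkn2c no adjusted p-value, which was not counted as a lost call. With library totals it was 0 for Tet2-/- against WT at D0 (1, with 3.28%) and 0 for the interaction in TKO (1, with 3.41%). With summed lines it was 0 and 0 for the same pair of comparisons (2.96% and 3.55%), and 1 for the interaction in Tet2-/- (8.58%) and for Tet2-/- against Tet1-/- at D0 (6.07%). With no filter it was 1 for the interaction in Tet2-/- (6.36%), and with the fit of all 24 libraries 2 for Tet2-/- against Tet1-/- at D6 (9.82%). With the clone as a replicate block it was 2 for Tet2-/- D6 against D0 (19.4%) and 0 for the interaction in TKO (5.01%), and the block moved no other count by over 1.5 times. Replicate numbers within a day only name clones: same-numbered samples correlated at -0.288 to 0.253 (n = 18), and with the number as a replicate block the count was 0 for Tet2-/- against WT at D0 (2.69%) and 1 for Tet2-/- against Tet1-/- at D0 (5.8%).

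With 1 library left out the count ran from 0 to 2 for Tet1-/- against WT at D0 (0% to 0.746% of all genes), 0 to 1 for Tet2-/- (0.0338% to 5.31%) and 0 to 3 for TKO (1.57% to 7.76%). At D6 it ran from 0 to 2 for Tet2-/- against WT, where 0% of all genes were called without Tet2-/- clone 2, 1.93% without clone 1 and up to 17.1% without WT clone 2. It ran from 0 to 2 for the interaction in Tet2-/- (2.55% to 13.4%) and from 0 to 1 in TKO (1.92% to 7.33%). For Tet2-/- against Tet1-/-, DKO and TKO it ran from 1 to 3 (1.63% to 7.93%), 0 to 1 (0.98% to 8.52%) and 0 to 2 (0.953% to 13.1%) at D0 and from 0 to 2 (0.0126% to 11.1%), 1 to 2 (0.177% to 10.9%) and 0 to 2 (0.0126% to 13.2%) at D6. Where 1 clone was left in a group, it was assumed to vary like the other groups. Library totals moved the median of all genes by 0.14 to 0.21 between D6 and D0, and the share of calls that were higher from 63.6% to 75.1% in DKO and from 66.0% to 76.7% in TKO. Cdkn2c, with 4 to 24 counts in a library, is limited by depth.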
